A study of Mus musculus with 11 samples.

Results

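The enzymes that build triglyceride from glycerol-3-phosphate and fatty acyl-CoA were followed in RNA-seq of im-scWAT cells, a line of mouse fat cell precursors from inguinal subcutaneous depots that SV40 large T antigen made immortal. The 10 genes were chosen by name, as the sense row that the files mark as representative of each symbol, out of 29955 gene symbols. They are Gpam and Agpat9, Agpat2 and Agpat3, Lpin1, Lpin2 and Lpin3, Dgat1, Dgat2 and Mogat1. FPKM (fragments per kilobase of exon, scaled to the mapped total of the sample) corrects for transcript length and depth, so levels can be set side by side between genes.

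Triglyceride is made stepwise. A glycerol-3-phosphate acyltransferase adds the first fatty acid, an acylglycerol-phosphate acyltransferase adds the next and gives phosphatidic acid, a lipin removes the phosphate to give diacylglycerol, and a diacylglycerol acyltransferase adds the last. A monoacylglycerol acyltransferase offers another way to diacylglycerol. In fat cells the product fills the lipid droplet, and loss of AGPAT2 or of lipin-1 is known to cause loss of fat tissue.

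The time course had 6 samples, taken at days 0, 4 and 8 of differentiation with rosiglitazone (ROS, a PPARγ ligand, 0.5 μM) or without it, 1 sample per combination. Both arms received indomethacin, dexamethasone, 3-isobutyl-1-methylxanthine, insulin and T3 at induction and insulin and T3 afterwards. The 2 day 0 samples were taken before the arms differed. The other 5 samples were day 8 cells differentiated with ROS. They carried a retroviral shRNA against mouse Jmjd1a (sh-mJmjd1a) and, also by retrovirus, human JMJD1A (hJMJD1A, a histone H3K9 demethylase), which was WT in 2 samples (WT A and WT B) and S265A, S265D or S265D-H1120Y in 1 sample each. S265 is a phosphorylation site that alanine removes and aspartate mimics, and H1120 binds the iron of the catalytic centre. All samples came from 1 kind of immortalized cell, nothing in the labels says that samples are separate cultures, and p-values therefore measure only the spread between these samples, which may be technical. In the day comparisons the 2 samples of day 4 and of day 8 are the 2 arms, so their spread and SE also include any ROS effect.

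The samples held 3.10 to 5.29 Gb of mapped bases. Adipocyte markers went with the labels, since Adipoq had 0.121 and 0.0519 FPKM at day 0 and 396 to 1291 FPKM in every later sample. Of 5 muscle markers 4 were at 0 in all samples, and of 5 immune markers Ptprc and Emr1 were at 0 while Cd68 had 0.541 to 21.7 FPKM. WT A and WT B stood apart from each other. Their FPKM differed at least 2-fold in 28.0% of 16402 genes, so each comparison with WT is given for both.

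**Figure D1:**
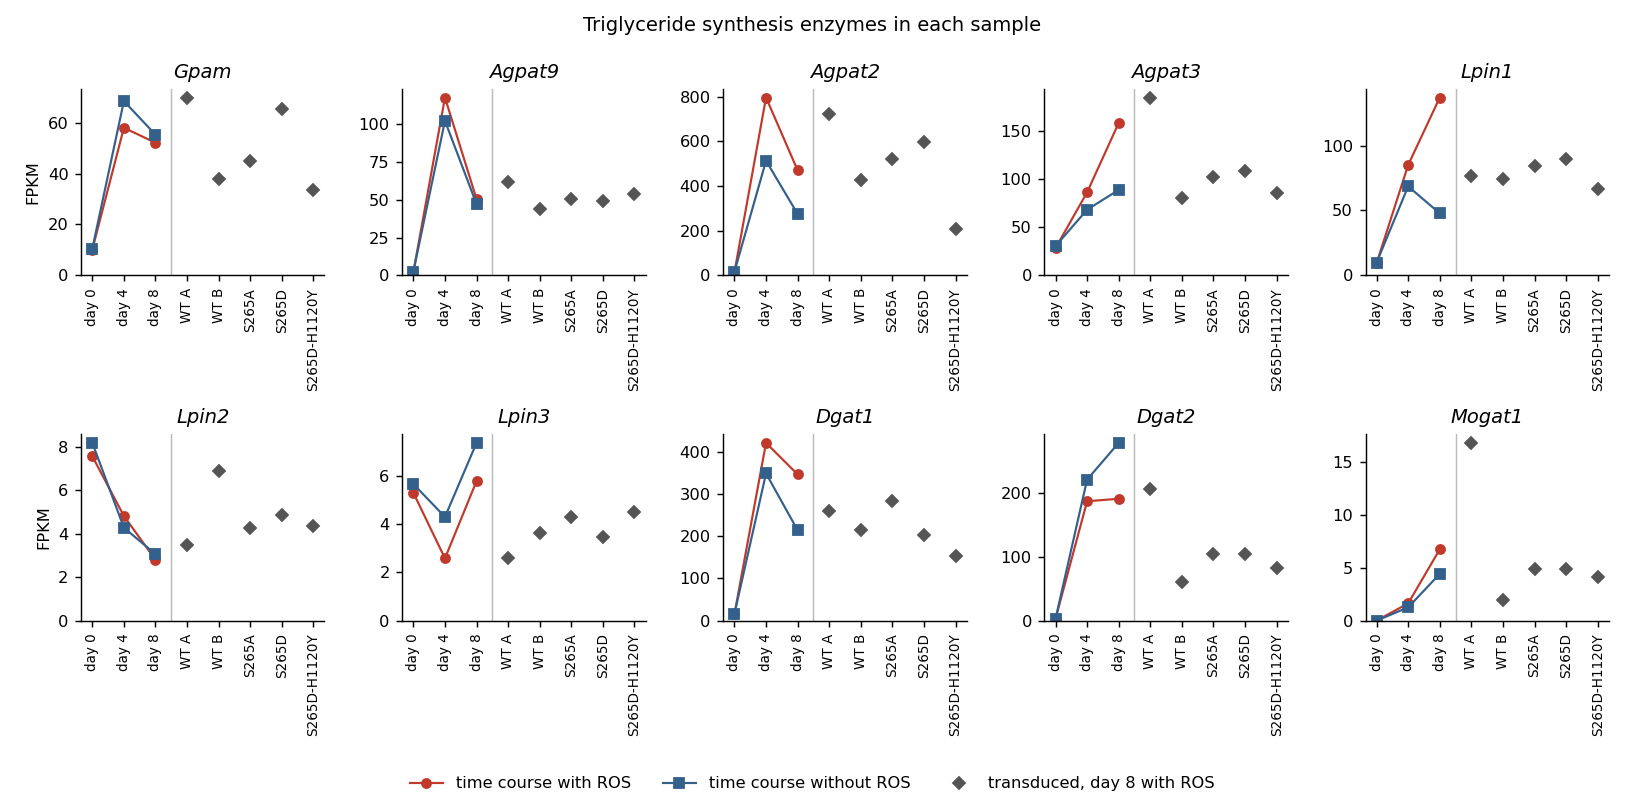
FPKM (vertical axis, linear, from 0, its own scale in each panel) of the 10 genes in each of the 11 samples. Circles joined by lines are the time course with ROS, squares without ROS, and diamonds the 5 transduced samples. Every gene except Lpin2 and Lpin3 was higher at days 4 and 8 than at day 0, and Dgat2 and Mogat1 were much higher in WT A than in WT B.

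Most of the 10 enzymes rose early. The summed FPKM of the 10 genes was 94.2 and 101 at day 0 with and without ROS, 1761 and 1401 at day 4, and 1422 and 1022 at day 8. The largest parts of the day 4 sums were Agpat2 (796 and 513) and Dgat1 (421 and 349). At day 0 the highest gene was Agpat3, and Agpat2 led in every later sample except that of day 8 without ROS, where Dgat2 led. In limma on log2(FPKM + 0.1), with the 2 arms of a day as its 2 samples, 8 of the 10 genes rose and 1 fell from day 0 to day 4 at an adjusted p under 0.05, where 19.8% of 16400 genes rose and 16.7% fell. From day 0 to day 8 again 8 rose and 1 fell, where 23.6% of all genes rose and 22.0% fell. The median log2 difference at day 8 was 3.08 over the 9 genes other than Mogat1, which is listed at 0 at day 0, and -0.03 over all genes tested. In bulk RNA, fewer cells of a type and less RNA per cell cannot be told apart. Of 8 adipocyte markers 7 rose alongside at both days, and of 6 preadipocyte markers 3 fell at each day while Pdgfra rose at day 4. How far the share of differentiated cells carries these levels was not tested.

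Gpam encodes the mitochondrial glycerol-3-phosphate acyltransferase GPAT1, which starts the pathway at the outer mitochondrial membrane (mm9 chr19:55144224-55173937). It had 10.1 and 10.4 FPKM at day 0 with and without ROS, 58.0 and 68.5 at day 4, and 52.1 and 55.2 at day 8. The later samples lay well above both day 0 samples, and the 2 days overlapped nowhere but came close. The log2 difference from day 0 was 2.60 ± 0.15 (SE, n = 2 per day, limma adjusted p = 0.000676) at day 4 and 2.37 ± 0.15 (adjusted p = 0.000713) at day 8.

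Agpat9 encodes GPAT3, a glycerol-3-phosphate acyltransferase of the endoplasmic reticulum (mm9 chr5:101275248-101328121). It had 2.18 and 2.44 FPKM at day 0, 118 and 102 at day 4, and 50.5 and 47.2 at day 8, in each case with ROS first. It thus started far below Gpam, passed it at day 4 and came down to about its level at day 8. The ratio of Agpat9 to Gpam FPKM was 0.215 and 0.234 at day 0, 2.03 and 1.49 at day 4, and 0.969 and 0.854 at day 8. The log2 difference from day 0 was 5.51 ± 0.16 at day 4 (limma adjusted p = 0.000132) and 4.34 ± 0.16 at day 8 (adjusted p = 0.000195).

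Agpat2 and Agpat3 make phosphatidic acid from lysophosphatidic acid. Agpat2, the form that fat tissue depends on (mm9 chr2:26449107-26459730), had 13.4 and 15.9 FPKM at day 0, 796 and 513 at day 4, and 471 and 275 at day 8, with ROS first. Every sample with ROS after day 0 lay above its partner without. The log2 difference from day 0 was 5.44 ± 0.35 (limma adjusted p = 0.000796) at day 4 and 4.61 ± 0.35 (adjusted p = 0.00106) at day 8. Agpat3 (mm9 chr10:77734308-77814445) had 28.3 and 30.4 FPKM at day 0, 86.3 and 68.2 at day 4, and 158 and 88.9 at day 8. It began above Agpat2 and ended well below it, so the ratio of Agpat2 to Agpat3 FPKM went from 0.474 and 0.524 at day 0 to 9.22 and 7.52 at day 4 and 2.97 and 3.09 at day 8. Its log2 difference from day 0 was 1.38 ± 0.31 (adjusted p = 0.0238) at day 4 and 2.01 ± 0.31 (adjusted p = 0.00719) at day 8. The day 4 call was lost without any 1 of its 4 samples, with differences of 1.22 to 1.55, and the day 8 call without either day 0 sample, with 1.96 and 2.06.

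The lipins are phosphatidate phosphatases, and lipin-1 is the main one of fat and muscle. Lpin1 (mm9 chr12:16542475-16596576) had 9.26 and 9.79 FPKM at day 0, 85.1 and 68.6 at day 4, and 137 and 47.8 at day 8, with ROS first. All later samples exceeded both day 0 samples, and the 2 arms went opposite ways after day 4. The log2 difference from day 0 was 2.99 ± 0.50 (limma adjusted p = 0.0106) at day 4 and 3.08 ± 0.50 (adjusted p = 0.00812) at day 8. The day 4 call was lost without any 1 of its 4 samples, with differences of 2.84 to 3.15, and the day 8 call without either day 0 sample, with 3.04 and 3.12. Lpin2 (mm9 chr17:71553994-71599158) went the other way. It had 7.56 and 8.18 FPKM at day 0, 4.81 and 4.27 at day 4, and 2.80 and 3.06 at day 8. The 3 days did not overlap, and the log2 scale values fell by 0.78 ± 0.15 (adjusted p = 0.0161) at day 4 and by 1.40 ± 0.15 (adjusted p = 0.00284) at day 8. The day 4 call was lost without any 1 of its 4 samples, with falls between 0.70 and 0.86. Lpin3 (mm9 chr2:160713904-160731736) had 5.30 and 5.67 FPKM at day 0, 2.58 and 4.30 at day 4, and 5.78 and 7.37 at day 8, and neither its difference at day 4, -0.70 ± 0.28 (adjusted p = 0.106), nor that at day 8, 0.25 ± 0.28 (adjusted p = 0.490), passed the test.

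Because the paralogs moved apart, the lipin mixture changed. Lpin1 was 41.9% and 41.4% of the summed lipin FPKM at day 0 with and without ROS. It was 92.0% and 88.9% at day 4 and 94.1% and 82.1% at day 8. In the 5 transduced samples it was 87.6% to 92.7%. At day 8 without ROS Lpin3 made up 12.7% of the sum, the highest share of that gene after day 0 among these samples.

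The Lpin1 message itself changed as well as its amount, and the exon concerned is shown here for that reason. Lipin-1 has a shorter α form and a longer β form, which differ by an optional coding exon. The exon has 99 bases, or 33 codons, and is exon 6 of 21 in its GENCODE transcript, at mm9 chr12:16577970-16578068 on the minus strand. It is printed 5′ to 3′ as transcribed, from the mm9 reference genome, with the exon in capitals and 12 intronic bases on each side in lower case.

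Lpin1 optional coding exon: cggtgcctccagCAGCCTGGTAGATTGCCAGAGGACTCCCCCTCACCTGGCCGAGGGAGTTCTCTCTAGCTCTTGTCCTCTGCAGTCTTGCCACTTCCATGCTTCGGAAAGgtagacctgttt

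The files list Lpin1 transcripts that differ by this exon alone, so the bases mapped to it are the difference between their mapped bases. Its depth per base is given as a percentage of that of the Lpin1 transcript without it. This depth was 29.9% and 25.6% at day 0 with and without ROS, from 1279 and 1152 mapped bases. It was 71.5% and 70.5% at day 4 and 92.8% and 92.1% at day 8. In the transduced samples WT A had 100.3%, WT B 99.9%, S265A 100.1%, S265D 109% and S265D-H1120Y 99.3%. The 3 days did not overlap, and the arms of 1 day differed by 4.32 percentage points at most. In contrast to the Lpin1 level at day 8, which was 2.87 times as high with ROS as without, the exon was at about the same depth in both arms.

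Another optional exon served as a comparison within the same gene. It has 144 bases, is untranslated, and is exon 2 of 21 in its own transcript (mm9 chr12:16591314-16591457). Its depth was between 23.8% and 34.2% in all 11 samples, with 23.8% and 29.2% at day 0 and 31.5% and 30.3% at day 8. The exon was singled out after its values were seen, so they are given as a description with no test. Mapped bases are not independent molecules, and whether coverage along the transcript differs between samples was not tested.

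**Figure D2:**
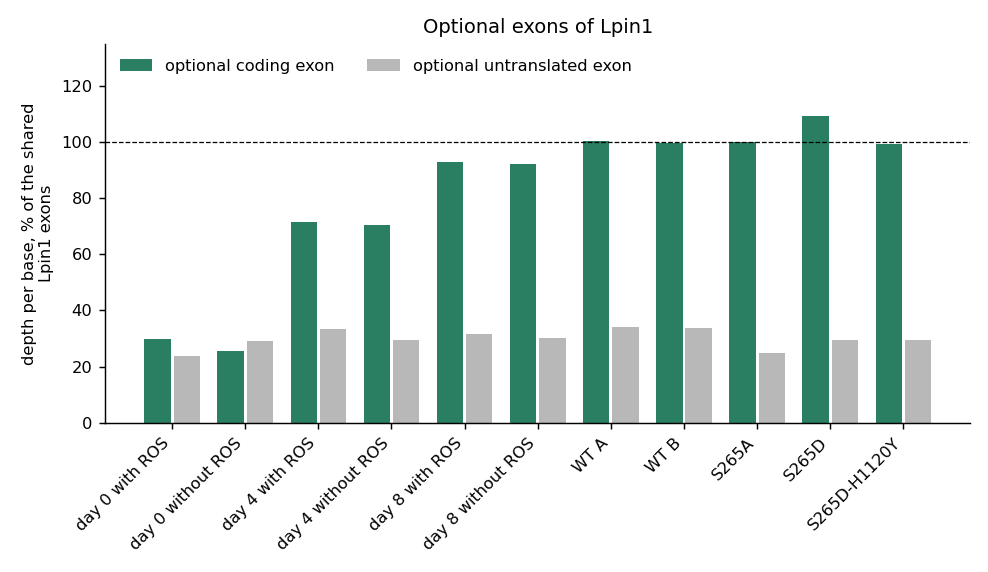
Depth per base of the 2 optional exons of Lpin1 as a percentage of that of the Lpin1 transcript without them (vertical axis) in each of the 11 samples (horizontal axis), 1 bar per sample and exon. The coding exon climbs from 29.9% and 25.6% at day 0 to 92.8% and 92.1% at day 8, while the untranslated exon stays between 23.8% and 34.2%.

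Dgat1 and Dgat2 encode unrelated enzymes for the last step, of which DGAT2 is known for using newly made fatty acids and DGAT1 for re-esterifying existing ones. Dgat1 (mm9 chr15:76332445-76342248) had 15.4 and 15.8 FPKM at day 0, 421 and 349 at day 4, and 346 and 214 at day 8, with ROS first. Its log2 difference from day 0 was 4.61 ± 0.27 (limma adjusted p = 0.000655) at day 4 and 4.11 ± 0.27 (adjusted p = 0.000712) at day 8. Dgat2 (mm9 chr7:106302173-106331223) had 2.69 FPKM in both day 0 samples, 188 and 222 at day 4, and 192 and 280 at day 8. Its mean was 76.1 times the day 0 mean at day 4 and 87.6 times at day 8, the largest ratios among the 9 genes with a value at day 0, with log2 differences of 6.19 ± 0.23 (adjusted p = 0.000212) and 6.37 ± 0.23 (adjusted p = 0.000195). It was the lower of the pair in every sample but 1. The ratio of Dgat2 to Dgat1 FPKM was 0.174 and 0.170 at day 0, 0.446 and 0.637 at day 4, and 0.554 and 1.31 at day 8 with and without ROS.

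Mogat1, which encodes a monoacylglycerol acyltransferase (mm9 chr1:78507635-78534748), is listed at 0 in both day 0 samples, with no mapped bases. It had 1.63 and 1.25 FPKM at day 4 and 6.74 and 4.42 at day 8, with ROS first, so the days did not overlap. The limma adjusted p was 0.000812 at day 4 and 0.000281 at day 8, and no fold is given against 0.

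**Figure D3:**
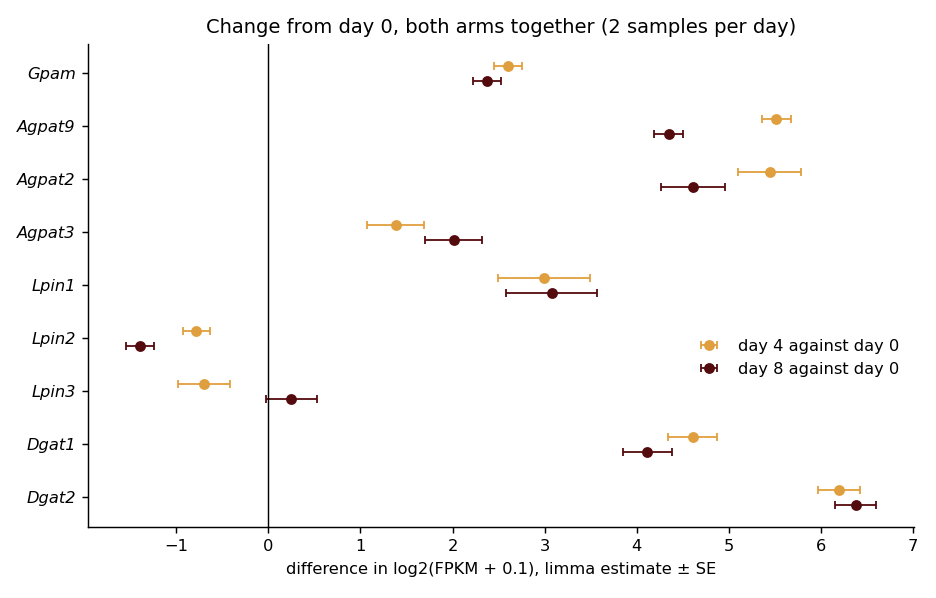
Difference in log2(FPKM + 0.1) from day 0 (horizontal axis) for 9 genes, with day 4 and day 8 as separate points and limma standard errors as bars, 2 samples per day. Dgat2, Agpat9 and Agpat2 lie furthest to the right, Lpin2 lies below 0 at both days, and Lpin3 lies on either side of 0. Mogat1 is left out because it is listed at 0 at day 0.

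Between days 4 and 8, 0 of the 10 genes passed limma at an adjusted p under 0.05, where 0.110% of all genes did. At an unadjusted p under 0.05 there were 4, and 21.3% of all genes. Agpat9 fell in both arms, to 0.429 and 0.461 times its day 4 FPKM with and without ROS, and its log2 difference was -1.17 ± 0.16 (limma adjusted p = 0.0909). Mogat1 was 4.15 and 3.53 times as high at day 8 as at day 4, with a difference of 1.86 ± 0.25 (adjusted p = 0.0909). Lpin2 and Lpin3 were the others, with adjusted p of 0.150 and 0.170. Agpat2 went to 0.591 and 0.535 of its day 4 FPKM and Agpat3 to 1.84 and 1.30 (adjusted p = 0.251 and 0.308). Lpin1 had 1.61 times its day 4 FPKM with ROS and 0.697 times without, so its mean change, 0.08 ± 0.50 (adjusted p = 0.942), describes neither arm.

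ROS was compared next, 1 sample against 1. At day 4 all 10 genes lay within 2-fold, where 9.15% of 16400 genes did not, and the ratios with over without ROS ran from 0.601 for Lpin3 to 1.55 for Agpat2. At day 8, 1 gene passed 2-fold, where 20.6% of all genes did and 4.41% were higher with ROS. That gene was Lpin1, at 137 FPKM with ROS and 47.8 without, a ratio of 2.87. Agpat3 had a ratio of 1.78, Agpat2 of 1.71, Dgat1 of 1.62 and Mogat1 of 1.53. Agpat9 at 1.07, Gpam at 0.943 and Lpin2 at 0.915 differed little, and Lpin3 had 0.785. Dgat2 went against Dgat1, with 192 FPKM with ROS and 280 without, a ratio of 0.685. The median log2 ratio of FPKM over all genes tested was -0.22 at day 8, so these ratios stand on a background that was itself lower with ROS, and scaling samples by median ratios took Agpat3 to 2.04.

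The spread for these contrasts came from the day 0 pair, with 1 residual degree of freedom. Limma called 0 of 10 genes at either day and 0 of 16400 genes (1862 at an unadjusted p under 0.05 at day 4 and 5011 at day 8). Lpin1 at day 8 had a log2 difference of 1.52 ± 0.09 and an adjusted p of 0.0972, and Dgat2 had -0.54 ± 0.07 and 0.114. The difference between the ROS effects of days 4 and 8 was 1.21 ± 0.13 for Lpin1 (unadjusted p = 0.0115, adjusted p = 0.256 in limma) and -0.30 ± 0.10 for Dgat2 (adjusted p = 0.340), and 0 of 16400 genes passed (2763 at an unadjusted p under 0.05). Over days 4 and 8 together, Agpat2 was higher with ROS by 0.70 ± 0.19 on the log2 scale (limma unadjusted p = 0.0194, adjusted p = 0.380). It was the 1 enzyme of 10 with an unadjusted p under 0.05, and Lpin1 had a larger difference of 0.91 ± 0.35. Agpat2 was higher with ROS in 2 of 2 days, as were Agpat3, Agpat9, Lpin1, Dgat1 and Mogat1. In this fit 0 of 15879 genes passed (1963 at an unadjusted p under 0.05).

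Marker lists moved with the day 8 contrast. The summed FPKM of 6 preadipocyte markers was 139 with ROS and 571 without, and that of 4 beige markers 220 and 47.7, with every gene of both lists in the direction of its sum. Most of the preadipocyte sum was Ly6a (108 and 495). The sum of 8 adipocyte markers, 35669 and 9629, is mostly Fabp4 (31402 and 7631), and 5 of the 8 were higher with ROS and 3 lower. Pparg, which drives fat cell differentiation, was among the lower, with 140 FPKM with ROS and 231 without. The part of these lists in the ratios was not tested.

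**Figure D4:**
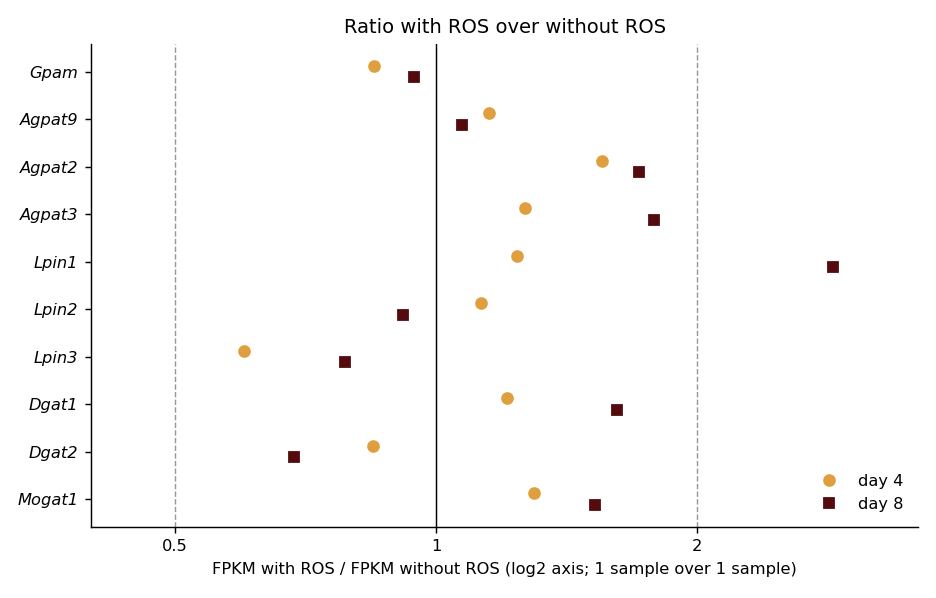
Ratio of FPKM with ROS to FPKM without ROS (horizontal axis, log2 scale) for the 10 genes, circles for day 4 and squares for day 8, each 1 sample over 1 sample. Dashed lines mark a 2-fold difference either way. The day 8 ratio of Lpin1, 2.87, is the only point past a dashed line, and Dgat2 lies at 0.685 while Dgat1 lies at 1.62.

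In the transduced cells the targeted gene was read first. Mouse Jmjd1a, listed as Kdm3a, had 20.4 FPKM in WT A, 17.9 in WT B, 13.0 in S265A, 23.0 in S265D and 28.5 in S265D-H1120Y, against 21.1 in the untransduced day 8 cells with ROS. These levels show no clear reduction, and reads from the human transgene were not told apart from mouse ones. From immunoblot and qPCR, the paper reports that the shRNA depleted endogenous JMJD1A efficiently. It also reports WT and S265A transgene protein at levels comparable to native mouse JMJD1A.

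The WT samples set the spread. WT A exceeded WT B in 8 of 10 genes, and the share of all genes higher in WT A was not counted. It was at least 2-fold higher in 3 of the 10, where 28.0% of 16402 genes differed at least 2-fold either way. Dgat2 had 207 and 61.2 FPKM in WT A and WT B, Mogat1 had 16.8 and 1.99, and Agpat3 had 185 and 80.7. Lpin1 had 76.4 and 74.1 and was the closest. Between the same samples the summed FPKM of preadipocyte markers was 146 (WT A) against 569 (WT B), and that of beige markers 190 against 23.8. Most of the preadipocyte sum was Ly6a (116 and 496), and the other genes of that list summed to 30.4 and 73.2. The adipocyte markers summed to 15390 and 28962 because of Fabp4 (12393 and 26902), while 6 of the 8 were higher in WT A and the 7 others summed to 2997 and 2060. The part of these lists in the spread was not tested.

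Against the WT mean, 0 of 10 genes passed 2-fold in S265A, where 11.7% of 16402 genes did, and 0 of 10 in S265D, where 10.3% did. S265A lay between the WT samples for 7 genes and above both for Lpin1 (84.3 FPKM), Lpin3 (4.30) and Dgat1 (284). S265D lay between them for 8 genes, above both for Lpin1 (89.9 FPKM) and below both for Dgat1 (202). The share of all genes in these positions was not counted, so they are a description only. The result for Mogat1 turned on the WT sample used. It had 4.93 FPKM in S265A and 4.92 in S265D, which is 0.293 times WT A in each case and 2.47 times WT B. Limma called 0 genes in either comparison (107 and 99 of 16402 at an unadjusted p under 0.05), and all 10 genes had an adjusted p of 1.

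S265D-H1120Y was set against S265D, 1 sample each, to ask what the loss of catalytic activity did. Agpat2 passed 2-fold, with 205 FPKM against 597, a ratio of 0.344, where 9.40% of all genes were lower and 15.7% passed either way. Its 205 FPKM was also below both WT samples (723 and 426). Gpam, with 33.3 against 65.5 FPKM, lay just short of 2-fold at 0.509 and was below both WT samples. Lpin1 had a ratio of 0.741 and Dgat1 of 0.764, and both were likewise below the WT samples. For Lpin1 the WT samples lay close together (76.4 and 74.1 FPKM), with 66.7 FPKM in S265D-H1120Y. How many of all genes lay below both WT samples was not counted. Dgat2 (0.791), Agpat3 (0.791), Mogat1 (0.844) and Lpin2 (0.899) lay between the WT samples, as did Agpat9 at a ratio of 1.10. Lpin3 had a ratio of 1.30 and lay above both WT samples. Limma with the WT spread called 0 of 16402 genes (187 at an unadjusted p under 0.05), and Agpat2 had -1.54 ± 0.63 with an unadjusted p of 0.0953. The 8 adipocyte markers, of which 7 were lower in S265D-H1120Y, summed to 15407 FPKM there (Fabp4 14128) and 24834 in S265D (Fabp4 22872). In the same order the preadipocyte markers summed to 213 and 477, and the beige markers to 82.2 and 154. Most of the preadipocyte sum was Ly6a (165 and 417), the 1 gene of that list that passed 2-fold. Cd34 of that list was higher in S265D-H1120Y (11.8 against 9.35). The part of these lists in the ratio of Agpat2 was not tested.

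**Figure D5:**
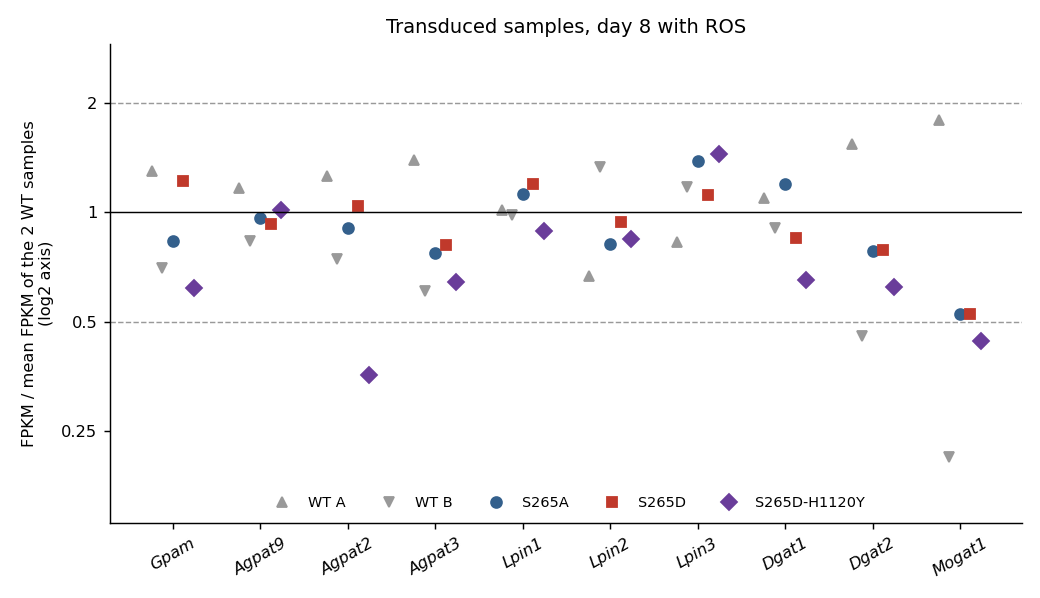
FPKM of the 5 transduced samples over the mean of the 2 WT samples (vertical axis, log2 scale) for the 10 genes, with a symbol per sample and dashed lines at 2-fold. Triangles are WT A and WT B, which are widest apart for Mogat1 (16.8 and 1.99 FPKM) and Dgat2 (207 and 61.2), and the lowest point outside Mogat1 is Agpat2 in S265D-H1120Y.

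Other genes around the pathway were read from day 0 to day 8, where 23.6% of all genes rose and 22.0% fell. Of 6 other acyltransferases for the first 2 steps, 5 had enough FPKM to be tested, and 1 rose from day 0 to day 8. This was Agpat5, by 0.65 ± 0.14 (limma adjusted p = 0.0181), while Agpat1 had 27.9 to 43.8 FPKM in all 11 samples. Of 3 tested relatives of MGAT and DGAT, Awat2 and Awat1 rose and Mogat2 fell, at levels of at most 2.04 FPKM in every sample. Among 5 tested lipid phosphatases and lipin regulators, Ppap2b rose by 1.35 ± 0.23 (adjusted p = 0.00906) and Ppap2a and Ppap2c fell.

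Transcripts of substrate supply genes changed by isoform. Of 8 genes for glycerol-3-phosphate and acyl-CoA, 3 rose and 2 fell by day 8, where 23.6% of all genes rose and 22.0% fell. Gpd1, which makes glycerol-3-phosphate from a glycolytic intermediate, had 0.153 and 0.222 FPKM at day 0 and 1794 and 745 at day 8 with and without ROS, and rose by 11.98 ± 0.49 on the log2 scale (limma adjusted p = 0.000248). Acsl1, the main acyl-CoA synthetase of fat, rose by 4.93 ± 0.43 (adjusted p = 0.00163) and Gpd1l by 1.82 ± 0.16 (adjusted p = 0.00151), whereas Acsl3 and Acsl4 fell by 1.01 ± 0.16 (adjusted p = 0.00784) and by 0.91 ± 0.24 (adjusted p = 0.0313). At day 8, 3 of these genes were at least 2-fold higher with ROS, namely Gyk, a glycerol kinase, at 3.64, Acsl1 at 2.42 and Gpd1 at 2.41, and Acsl6, at most 0.413 FPKM, was lower at 0.117. Of 16400 genes, 4.41% were at least 2-fold higher with ROS at that day and 20.6% passed 2-fold either way.

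All 3 tested droplet partners rose by day 8. Fitm2, which helps form lipid droplets, rose by 4.30 ± 0.35 (limma adjusted p = 0.00136), Bscl2, the seipin gene, by 3.10 ± 0.21 (adjusted p = 0.000841) and Tmem68 by 0.97 ± 0.16 (adjusted p = 0.00805). Of 5 tested genes that draw on the same intermediates or break the product down, 3 rose. Pnpla2, which encodes adipose triglyceride lipase, rose by 5.96 ± 0.53 (adjusted p = 0.00163), Chpt1, which turns diacylglycerol into phosphatidylcholine, by 3.81 ± 0.31 (adjusted p = 0.00131) and Cept1 by 0.99 ± 0.16 (adjusted p = 0.00863). Pnpla2 was also 3.02 times as high with ROS as without at day 8.

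The genes most like each of 5 enzymes were sought among 12416 genes over the 11 samples, as the smallest root mean square difference of log2 values centred per gene. For Agpat2 these were Sort1 (0.381), Acsl1 (0.389) and Pde3b (0.411). For Lpin1 they were Ormdl3 (0.190), Cycs (0.210) and Acadm (0.216), and Cycs and Acadm encode mitochondrial proteins of respiration and fatty acid oxidation. For Dgat2 they were Zbtb16 (0.359), 1190002H23Rik (0.373) and Abhd15 (0.383). For Dgat1 and Gpam the nearest symbols, Dgat (0.0631) and mKIAA1560 (0.0328), overlap the gene itself, and the next were Fitm2 (0.233) and Pcx (0.288) for Dgat1, and Alas1 (0.211) and Taldo1 (0.245) for Gpam. All 11 points share the steep change from day 0, so these distances are a description only.

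Promoters were read for the 8 of 10 enzymes found in the RefSeq table (GRCm38.p6), as the 250 bases before each of 12 starts. A DR1-like match, the kind of element that PPARγ binds with RXR, was defined as a direct repeat of AGGTCA spaced by 1 base, on either strand, with at most 2 mismatches. It occurred in 3.24% of 32851 promoters and in 1 of these 12, that of Mogat1. TTGCNNAA, the core bound by C/EBP factors, occurred in 9.56% of all promoters and in 2 of the 12, at Agpat3 and at 1 start of Lpin2. CANNTG, the E-box, occurred in 66.2% and in 7 of the 12. The motifs were counted without regard to overlap with each other, and a match is a description of letters. The promoters of Mogat1 (chr1:78510810-78511059, plus strand), the gene that appeared from 0, and of Agpat3 (chr10:78351701-78351950, minus strand), with a ROS ratio of 1.78 at day 8, are printed 5′ to 3′ with the DR1-like and the C/EBP match in capitals.

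Mogat1 promoter: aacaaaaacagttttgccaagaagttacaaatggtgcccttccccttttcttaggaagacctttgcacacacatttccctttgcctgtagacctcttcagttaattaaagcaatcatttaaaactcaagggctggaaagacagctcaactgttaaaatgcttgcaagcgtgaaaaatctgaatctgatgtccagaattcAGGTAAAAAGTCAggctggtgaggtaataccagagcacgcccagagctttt

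Agpat3 promoter: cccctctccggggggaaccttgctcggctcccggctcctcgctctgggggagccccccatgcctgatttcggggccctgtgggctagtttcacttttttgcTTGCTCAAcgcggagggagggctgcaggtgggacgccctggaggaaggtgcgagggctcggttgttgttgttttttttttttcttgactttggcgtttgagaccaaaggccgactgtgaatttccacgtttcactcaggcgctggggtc

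Counted from the start, the Mogat1 match lies at bases -51 to -39 and the Agpat3 match at bases -149 to -142. The promoters of Gpam, Agpat2, Agpat9, Lpin1 and Lpin3 held neither element in this window. Dgat1 and Dgat2 were the enzymes not found in the RefSeq table.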

How the data were processed

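RNA-seq of 11 im-scWAT samples was read, 6 of a time course and 5 transduced, grouped by the labels. Per the labels and the study's methods, the authors prepared TruSeq libraries, mapped the reads with Burrows-Wheeler aligner against the UCSC transcriptome and the mm9 genome, and refined the alignment locally. The authors deposited FPKM for each transcript and strand, with mapped bases per transcript as a signal (coverage) and no read counts. Replicates were not pooled. The labels give a switch to medium without ROS at day 7, whereas the study's methods for these cells keep ROS until day 8, so only its presence defined the arms. Deposited log columns were not used.

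Sense rows of the transcript that the files mark as representative were used. Limma (3.58.1, R 4.3.3) was run on log2(FPKM + 0.1), which understates the change of low genes, over genes with at least 0.1 FPKM in a sample of the fit, with Benjamini-Hochberg adjustment at 0.05. Comparisons of 1 sample with 1 used a 2-fold rule on FPKM. The fit was tested on simulated data. Python 3.11.15, numpy 2.4.6, pandas 2.3.3 and matplotlib 3.10.9 were used. All 10 enzymes are named, and list genes are those with the largest change that passed. The enzymes, lists and tests were chosen with earlier results of these data known. Alternatives changed the pseudocount, filter, transcript, scaling, fit and samples.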

Additional observations from a re-analysis of the deposited data

Results flagged for a closer look

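The antisense rows of 4 enzymes held signal that none of the comparisons used, above the level of both day 0 samples in every day 4 and day 8 sample of the time course and at least 0.1 FPKM there. The highest antisense FPKM at those days was 1.08 for Agpat2, 0.419 for Agpat9, 0.666 for Dgat1 and 0.314 for Dgat2, against at most 0.0287, 0.00749, 0.0483 and 0.00943 at day 0. These rows made up at most 0.135%, 0.489%, 0.191% and 0.112% of both strands at days 4 and 8 of the time course. Over all 11 samples the highest shares were 0.214%, 0.667%, 0.311% and 0.349%. For each gene the highest share thus lay at day 0 or in a transduced sample, and the transduced samples were also day 8 cells. Whether the antisense rows rose apart from the sense rows was not tested.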

How the results depend on the processing

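Of 85 recounts of the enzymes that passed, 77 stayed within 1.5 times the value given. From day 4 to day 8 a pseudocount of 1 gave 1 called gene in place of 0, and leaving out single samples gave 0 to 1. Without a filter on low values the day 4 and day 8 calls of Agpat3 and Lpin1 were lost at the same differences, and the day 4 call of Lpin2 was lost in the arm with ROS alone. With ROS at day 8, median-ratio scaling gave 2 genes past 2-fold in place of 1. Without that filter, which takes in genes at 0 in every sample, the differences between the ROS effects of Dgat2 (-0.30) and Mogat1 (0.25) were unchanged but calls changed. The share of all genes called in that setting is not given, so those calls are not read as results about these genes. With WT A or WT B alone, S265A and S265D each gave 1 gene past 2-fold in place of 0. From day 4 to day 8 the log2 difference of Lpin1, 0.08, ran from -0.67 to 0.84 with single samples left out and reversed to -0.67 without the day 8 sample with ROS, to -0.07 without the day 4 sample without ROS and to -0.52 in the arm without ROS alone, a setting chosen after seeing the data. That of Dgat2, 0.18, ran from -0.091 to 0.45 and reversed to -0.091 without the day 8 sample without ROS. A lone sample left in such a fit is assumed to vary like the others. The difference of ROS effects for Agpat9, -0.10, was 0.027 under median-ratio scaling. The cause of these changes was not tested. The labels number replicates in WT only, so no replicate number could serve as a block. With ROS as an additive factor beside day, the day comparisons called 9, 9 and 0 enzymes, as without it. Leaving out a sample of the fit over days 4 and 8 leaves no residual degrees of freedom, and was not run. Single samples per condition limit every ROS and mutant comparison.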
